A study of Terfezia claveryi
Helianthemum almeriense and Terfezia claveryi with 9 samples.

Results

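In the desert truffle Terfezia claveryi, 106 of 12765 gene models (0.83%) met a rule for a low share of the reads in well-watered mycorrhizal roots. The comparison was with both cultured mycelium and drought-stressed mycorrhizal roots, and the models that met the rule are called members. These members were chosen by their measured CPM (the total gene reads of a model per 1000000 total gene reads of its library). Each had a mean of at least 20 CPM in cultures and in drought roots, both means at least 4 times the well-watered mean, culture and drought means within 4 times of each other, and a highest well-watered library below the lowest of the other 6 libraries. The low level in well-watered roots is therefore the criterion and not a finding, and counts of calls in these contrasts are given further down as a description only.

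Desert truffles are ascomycetes that fruit below ground in dry Mediterranean soils and live in mycorrhiza with rockroses such as Helianthemum. The fungus takes sugars from the root and supplies water and mineral nutrients in return, and T. claveryi is known to grow both between and inside root cells. Moving from free growth to life in a root is known in mycorrhizal fungi to change the transcription of secreted proteins, cell wall degrading enzymes and transporters. The files list gene models of the JGI Tercla1 catalogue by identifier alone, without names, products or positions, so no function is given to any member.

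The 3 groups held 3 libraries each. Cultures were the vegetative mycelium of strain T7, shaken in liquid MMNo medium in darkness at 23 °C and harvested after 3 months, and thus came from 1 strain. The root groups were secondary and tertiary roots of Helianthemum almeriense seedlings that received a T. claveryi spore solution 2 months after germination. Watering was changed 3 months later: the well-watered plants were kept above 75% soil moisture, and the drought-stressed plants were brought to 40% and held there until their shoots fell below -2 MPa. Both root groups therefore share the host, the spore inoculum and the age of the association at the change of watering. Cultures differ from both in fungal source and in the absence of a plant. RNA was taken from 100 mg of each sample.

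Total gene reads ran from 15855363 to 31854784 in cultures, from 869998 to 1635015 in well-watered roots and from 3493361 to 5470044 in drought roots, so the group in which the members are low is also the shallowest. In a root library these are the reads assigned to fungal models, and all reads sequenced per library are not among the values used here. Less sequencing, more plant RNA, fewer fungal cells and less RNA per fungal cell therefore cannot be told apart. The intervals below pool the 3 libraries of a group and treat reads as independent. They therefore cover counting error only and leave out the spread between replicates. Reads were counted without molecular identifiers, which can make the intervals too narrow even for counting error. The labels and headers do not tell if mates were counted singly or as pairs. If both mates were counted, a count stands for fewer fragments and the intervals are too narrow. The labels call the 3 replicates of a group biological, without saying whether each is 1 plant or flask.

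Of the 12765 gene models, 5301 had a mean of at least 20 CPM in both cultures and drought roots. Among these, cultures stood at least 4 times above well-watered roots for 307 models, drought roots did so for 298, and both did so for 133. The limit of 4 times between cultures and drought roots removed 26 of the 133, of which 24 were higher in drought roots (4.22 to 78.7 times the culture mean) and 2 were higher in cultures (6.18 and 7.05 times the drought mean). The condition of no overlap removed 1 more, leaving 106. That model had 18.0 CPM in well-watered replicate 1 and 0 reads in the other well-watered libraries, against 15.9 CPM in drought replicate 1.

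**Figure D1:**
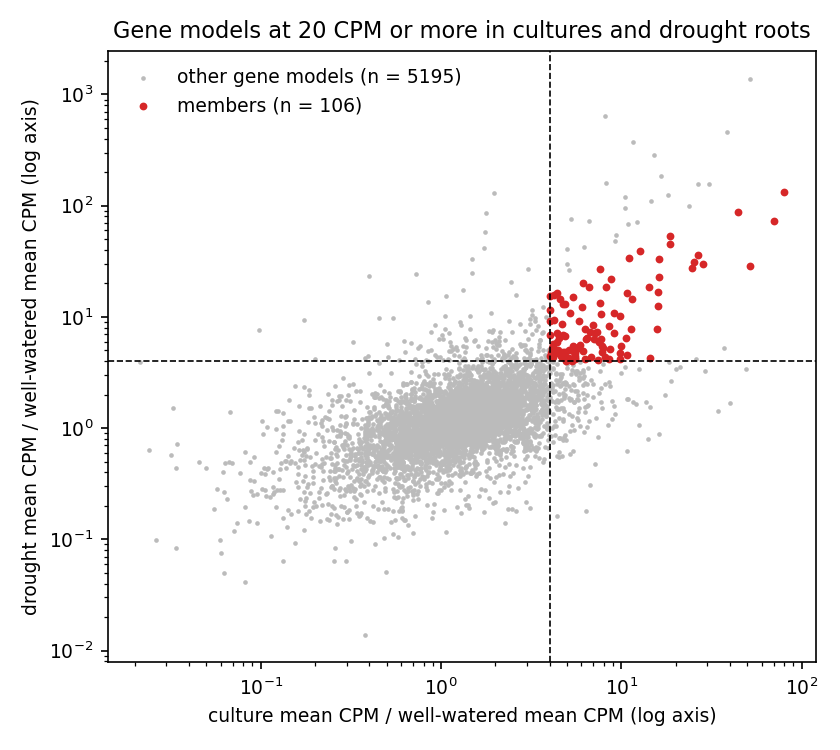
Ratio of the culture mean to the well-watered mean (horizontal, log axis) against the ratio of the drought mean to the well-watered mean (vertical, log axis) for the gene models at 20 CPM or more in cultures and drought roots. Dashed lines mark 4 times, red points are the 106 members, and grey points in the same corner failed the limit between cultures and drought roots or the condition of no overlap. Both axes share the well-watered mean, so the points lean along the diagonal by construction.

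The whole distribution of these 5301 models was already shifted, since their median ratio to well-watered roots was 1.29 for cultures and 1.21 for drought roots. These models had to reach 20 CPM in cultures and drought roots but not in well-watered roots, so part of this shift can follow from that choice. Scaling by TMM, which sets the libraries on a common bulk of genes in place of their totals, raised well-watered levels by 0.14 on the log2 scale and changed culture and drought levels by -0.06 and -0.08. On that scale 64 gene models met the rule, and all 64 were among the 106. With DESeq2 size factors the number was 60, again all among the 106. The 59 members kept under both scalings had ratios of 4.77 to 79.6, where the ratio is the lower of the culture and drought means over the well-watered mean.

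Members lay close to the threshold more often than far from it. The ratio was under 5 for 50 of the 106, at least 10 for 19 and at least 20 for 8, with a median of 5.24 and a highest value of 79.6. The 3 members just inside the fold threshold had ratios of 4.01, 4.03 and 4.03, and the 3 models just outside it had 3.98, 3.94 and 3.94. At the level threshold the lower mean was 20.3, 20.3 and 20.9 CPM just inside and 19.0, 17.9 and 16.8 CPM just outside. At the limit between cultures and drought roots the larger mean was 3.83, 3.70 and 3.69 times the smaller just inside, and 4.22, 5.16 and 5.22 times just outside. The rule thus cuts a continuous distribution in the fold and the level.

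**Figure D2:**
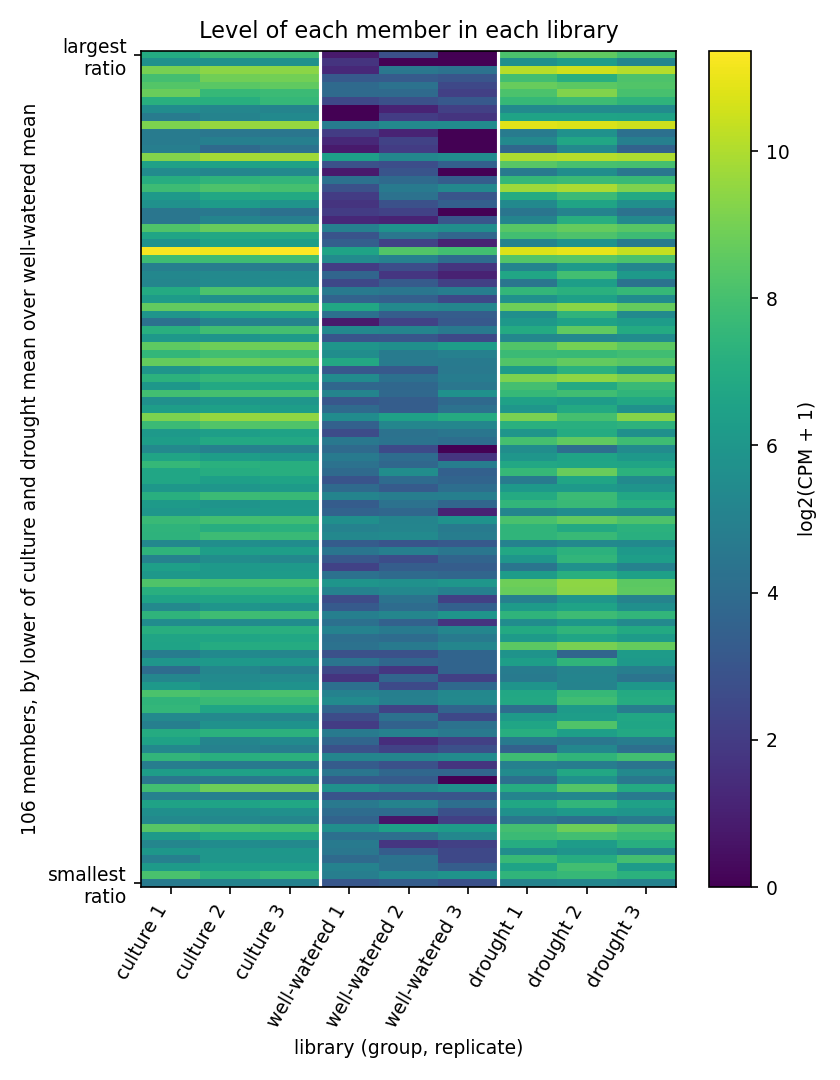
Level of the 106 members (rows, sorted from the largest ratio at the top to the smallest at the bottom) in the 9 libraries (columns), as log2(CPM + 1). The 3 well-watered columns are darker than the other 6 in every row, as the rule requires, and the darkest cells lie mostly in the upper rows and in well-watered replicate 3.

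The label of a repressed set describes a lower share of reads and not absence, and whether transcription was repressed was not tested. No member was without reads in all 3 well-watered libraries, and 95 of the 106 had at least 1 read in each of them. Well-watered replicate 3, the shallowest library, was the one without reads for 9 members, against 2 for replicate 1 and 1 for replicate 2. The pooled count over the well-watered libraries ran from 3 to 841 reads with a median of 49.5, and 8 members had at most 10 reads. The members are therefore genes with a low but mostly detected level there.

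Over the members, gene means ran from 20.3 to 2435 CPM in cultures (median 88.8). In the well-watered group they ran from 0.750 to 215 CPM (median 12.7), and under drought from 20.9 to 1679 CPM (median 112). Per kilobase of gene model, the medians were 78.3 RPKM (CPM divided by the length in kilobases) in cultures, 11.6 in the well-watered group and 95.9 in the drought group. The corresponding medians over the 5301 models were 53.3, 44.5 and 54.2 RPKM. Per unit of length the members thus stood above the middle of these models in cultures and drought roots and below it in well-watered roots. The rule asked for culture and drought means at least 4 times the well-watered mean. It therefore acted on both sides, and these differences describe the choice.

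Summed over the members, the share of total gene reads was 1.62%, 1.82% and 1.86% in culture replicates 1, 2 and 3. It was 0.214%, 0.224% and 0.221% in the well-watered replicates and 2.03%, 2.57% and 1.87% in the drought replicates. The well-watered libraries were nearly equal although their depths differed, and drought replicate 2 stood above every other library. The mean share was 1.77 ± 0.127% for cultures, 0.220 ± 0.00499% for the well-watered and 2.15 ± 0.367% for the drought group (SD, n = 3 each). Without the most abundant member they were 1.52 ± 0.126%, 0.198 ± 0.00597% and 1.99 ± 0.337%, in the same order. The lowest place of the well-watered group was fixed by the rule, so leaving out a member could not change it.

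**Figure D3:**
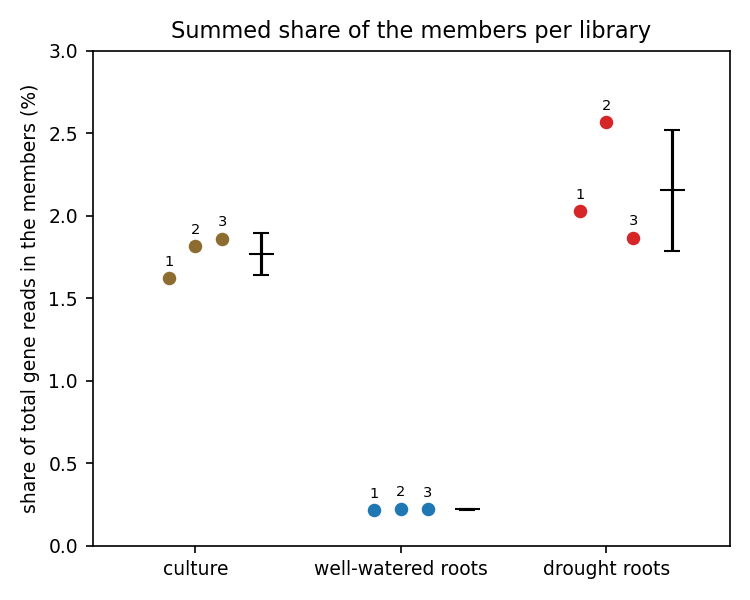
Share of total gene reads that fell in the 106 members, in percent, for each library (points, numbered by replicate), with the group mean and SD (bar, n = 3). The well-watered libraries lie at 0.214 to 0.224% and the other 6 at 1.62 to 2.57%, as selection on these libraries requires.

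The member with the largest ratio was jgi|Tercla1|1222868|, of 2055 bases. It held 124, 210 and 213 CPM in the cultures, 0.750, 6.12 and 0 CPM in the well-watered roots, and 284, 385 and 245 CPM in the drought roots. Every drought library lay above every culture, and 10 of its 11 well-watered reads came from replicate 2. The means were 182 ± 50.5, 2.29 ± 3.34 and 305 ± 72.6 CPM (SD, n = 3 each). By pooled reads it was 67.5-fold lower in well-watered roots than in cultures (exact 95% Clopper-Pearson interval 37.7 to 135) and 105-fold lower than in drought roots (58.8 to 211). Without well-watered replicate 2 only 1 well-watered read was left and the ratios of means were 486 and 813, against 79.6 and 133 with all libraries, so their size hangs on that library.

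The next largest was jgi|Tercla1|1171348|, a short model of 462 bases of whose reads 61.0% were unique to it. Cultures held 52.6, 52.1 and 52.4 CPM and drought roots 51.2, 77.6 and 36.4 CPM. The cultures were nearly equal and lay inside the range of the drought libraries. Well-watered roots had 3 reads in replicate 1 and none in replicates 2 and 3. The pooled ratio was 67.0 against cultures (95% interval 22.9 to 325) and 69.8 against drought roots (23.8 to 339). Without well-watered replicate 1 no read remained, and the gene was at least 43.7-fold lower than in cultures and at least 46.0-fold lower than in drought roots, taking 3 counts over the remaining 2 libraries as the floor.

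By share of reads the leading member was jgi|Tercla1|1269802|, of 849 bases and read uniquely. Its cultures were at 2435, 2237 and 2633 CPM, its well-watered libraries at 94.5, 308 and 244 CPM and its drought libraries at 1732, 1982 and 1324 CPM. Here the drought libraries lay below every culture, and well-watered replicate 1 was the lowest of all 9 libraries. The means were 2435 ± 198, 215 ± 109 and 1679 ± 332 CPM (SD, n = 3 each). Per length it reached 2868 RPKM in cultures, the highest culture value among the members, and 1978 RPKM in the drought group. Its well-watered level of 254 RPKM was still above the upper quartile of the members in cultures, 166 RPKM.

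The runner-up, jgi|Tercla1|1201555| of 970 bases, held 557, 750 and 746 CPM in cultures and 26.2, 39.1 and 44.8 CPM in well-watered roots. In drought roots it held 1857, 1702 and 1428 CPM, so each drought library exceeded each culture. The means were 684 ± 110, 36.7 ± 9.53 and 1662 ± 217 CPM (SD, n = 3 each), a drought mean 2.43 times that of cultures. With 138 well-watered reads its pooled ratios were better bounded than those of the 2 members with the largest ratios, at 19.7 against cultures (95% interval 16.7 to 23.5) and 47.1 against drought roots (39.8 to 56.1).

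**Figure D4:**
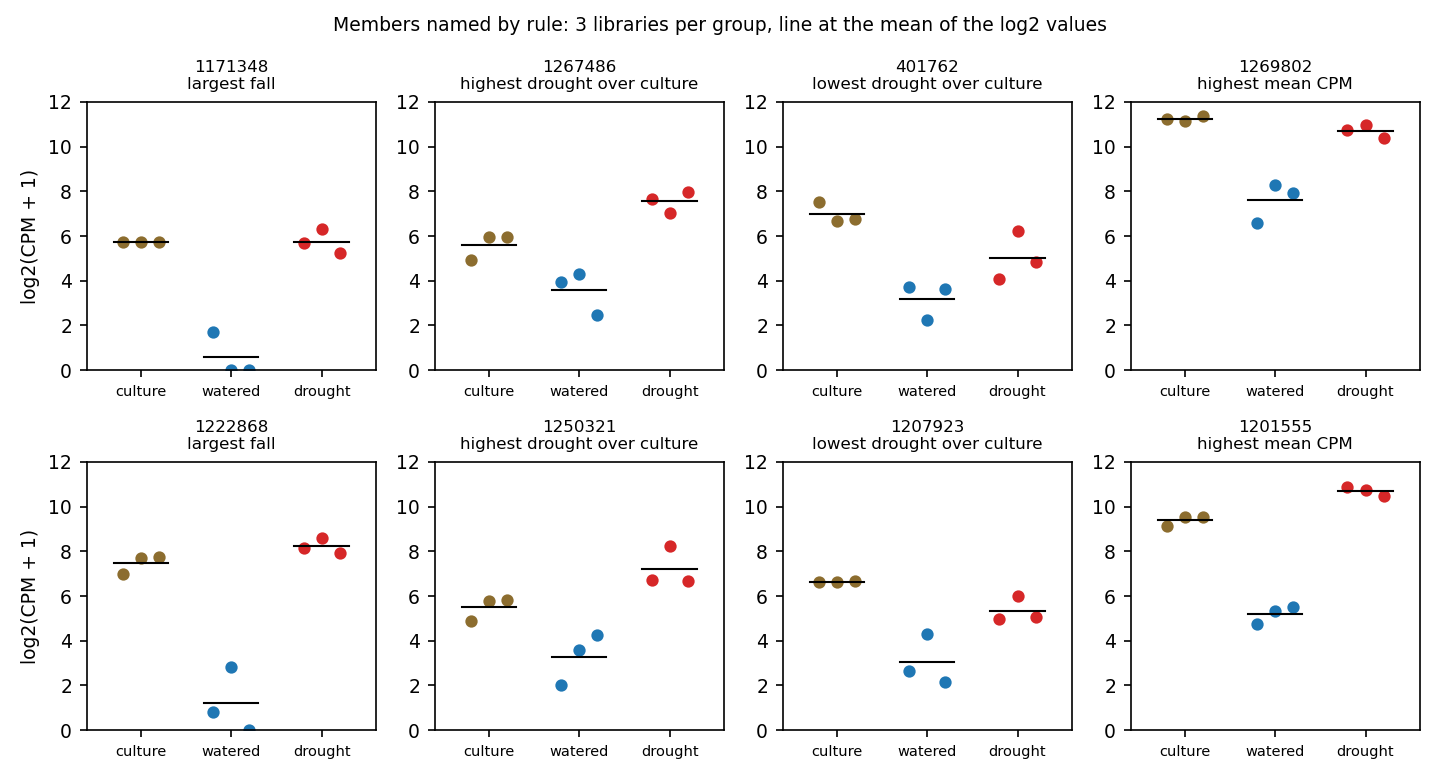
Level of the 8 members described by identifier, as log2(CPM + 1), in each library (points, 3 per group) with the mean of the log2 values (line). The heading of each panel gives the last part of the identifier and the reason for showing it, and the well-watered points lie below all others in each panel.

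Cultures and drought roots stood at similar levels for most members, within the limit that the rule sets. Drought means were above culture means for 64 of 106, and the median ratio of drought to culture was 1.09, against 0.965 over the 5301 models. The ratio lay within 2 times for 78 members, drought roots were at least 2 times higher for 22, and cultures were at least 2 times higher for 6. Shares of the 5301 models in these classes are not given here, so the classes are not read as a trait of the members. Quartiles of this ratio were 0.814 and 1.66 over the members and 0.643 and 1.44 over the 5301 models. Levels within 2 times were thus common in both and not particular to the members. For 31 members (29.2%) every drought library lay above every culture, where 26.2% of the 5301 models did so, and for 15 (14.2%) every drought library lay below every culture, where 32.8% did. The remaining 60 overlapped. The rule limited this ratio too, so the counts describe the selected genes.

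At the drought side of that range stood jgi|Tercla1|1267486| (1344 bases). It held 29.7, 61.2 and 61.4 CPM in cultures, 14.2, 19.0 and 4.60 in well-watered roots and 200, 131 and 252 in drought roots. All drought libraries lay above all cultures, with a drought mean 3.83 times the culture mean. Its culture mean was only 4.03 times the well-watered mean, so it is a member by a narrow margin.

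jgi|Tercla1|1250321| (837 bases) had a drought mean 3.70 times its culture mean. Its levels were 28.9, 53.2 and 55.0 CPM in cultures, 3.00, 11.0 and 18.4 in well-watered roots and 103, 304 and 101 in drought roots. Drought replicate 2 stood far above the other drought libraries, and without it the drought mean was 2.23 times that of cultures and 9.42 times that of well-watered roots, against 15.7 with all libraries. Without well-watered replicate 3 the ratios to well-watered roots were 6.53 for cultures and 24.2 for drought roots, against 4.23 and 15.7.

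At the culture side stood jgi|Tercla1|401762| (1347 bases), with 181, 100.5 and 109 CPM in cultures, 12.0, 3.67 and 11.5 in well-watered roots and 15.9, 72.8 and 27.2 in drought roots. Every drought library was below every culture, and the drought mean was 0.297 of the culture mean. Drought replicate 2 carries its place among the members: without that library the drought mean was 2.38 times the well-watered mean, against 4.27 with it, and 0.166 of the culture mean.

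jgi|Tercla1|1207923| (591 bases) held 96.5, 98.0 and 102 CPM in cultures, 5.25, 19.0 and 3.45 in well-watered roots and 30.3, 62.4 and 32.9 in drought roots. Its drought mean was 0.423 of the culture mean, with no overlap between these groups. None of its reads was unique to it, so its level cannot be told from that of the models it shares reads with. Well-watered replicate 2 held 31 of its 41 well-watered reads, and without it the ratios to well-watered roots were 22.8 for cultures and 9.63 for drought roots, against 10.7 and 4.54 with all libraries.

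Within the groups, single libraries stood out over the members. Drought replicate 2 was the highest drought library for 81 of 106 members (76.4%), against 48.1% of the 5301 models, and the lowest for 17 (16.0%), against 38.1%. Its level was at least 2 times the mean of the other drought libraries for 27 members (25.5%), against 8.56% of the 5301 models, with a median of 1.38 against 1.06. Drought replicates 1 and 3 were highest for 9 (8.49%) and 16 members (15.1%), against 21.7% and 30.3% of the 5301 models. The drought libraries were used in the choice, and the part that the choice has in this excess was not tested. Without drought replicate 2 the rule gave 86 gene models, 81 of them among the 106.

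In cultures, replicate 1 was the lowest library for 69 members (65.1%), against 37.8% of the 5301 models. Among the well-watered libraries, replicates 1, 2 and 3 were the highest for 36 (34.0%), 36 (34.0%) and 34 members (32.1%), against 51.6%, 22.6% and 25.8% of the 5301 models. Replicate 1 was thus the highest less often among the members than among these models. The culture and well-watered libraries were also used in the choice, and the part that the choice has in these differences was not tested. The median coefficient of variation over the members was 12.9% in cultures, 46.0% in the well-watered group and 27.0% in the drought group. Over the 5301 models it was 8.28%, 27.0% and 23.5%. Counting error and other spread were not separated in these values.

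Members were also chosen on 8 libraries and then looked up in the library left out. Only the level in that library is independent of the choice: the means it is set against were selected by the rule, as high in cultures and drought roots or as low in well-watered roots. The shares past 4 times are therefore partly fixed by the choice and are a description. When a well-watered library was left out, "past 4 times" means that the lower of the culture and drought means was at least 4 times its level. Of 165 gene models chosen without well-watered replicate 1, 67 (40.6%) were past 4 times in it, against 3% of all gene models at 20 CPM or more in cultures and drought roots. For replicate 2 these numbers were 71 of 119 (59.7%) against 4.06%, and for replicate 3 they were 61 of 98 (62.2%) against 5.72%.

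The left-out well-watered library exceeded the lower of the culture and drought means for 9 of the 165 (5.45%), 2 of the 119 (1.68%) and 0 of the 98. Over all 5301 models it did so for 57.7%, 46.7% and 46.2%. The median level in the left-out library was 31.0%, 20.2% and 20.3% of that lower mean for replicates 1, 2 and 3, against 112%, 94.2% and 93.1% over the 5301 models. In the well-watered libraries that made the choice it was 18.9%, 18.6% and 17.2%. Replicate 1 stood highest both in the chosen models and over all 5301. It is also the library without which the number of members rose most, from 106 to 165, of which 93 were among the 106.

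**Figure D5:**
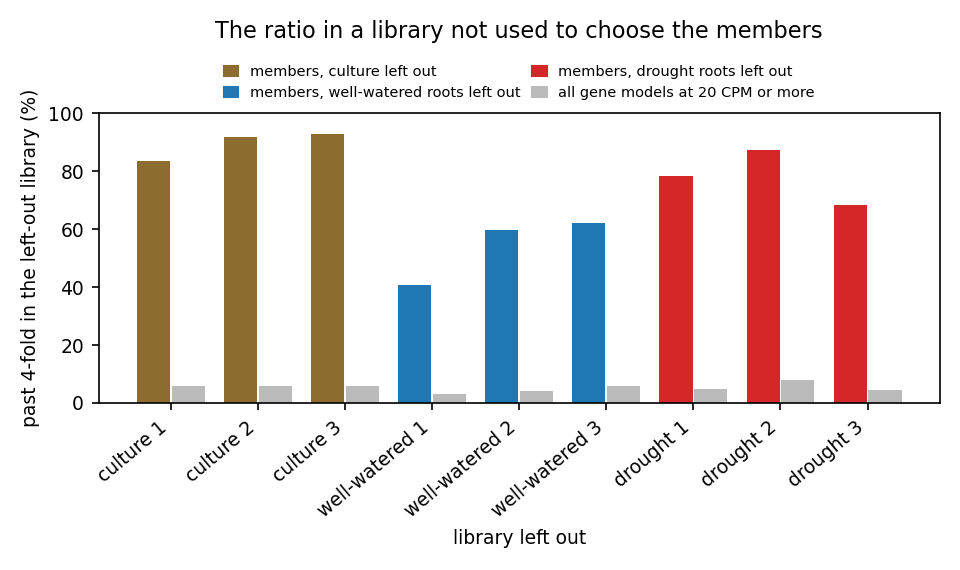
Share of gene models past 4-fold in a library left out (vertical axis, percent), for members chosen on the other 8 libraries (coloured bars) and for all gene models at 20 CPM or more in cultures and drought roots (grey bars). The coloured bars run from 40.6% to 93.0% and the grey bars from 3% to 7.8%, and the means behind each ratio took part in the choice.

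When a culture or drought library was left out, the ratio was taken to the well-watered mean, which the rule had selected as low. With culture replicates 1, 2 and 3 left out, 87 of 104 (83.7%), 90 of 98 (91.8%) and 93 of 100 (93.0%) models were past 4 times in them, against 6.01%, 5.97% and 5.78% of all gene models at 20 CPM or more in both groups. With drought replicates 1, 2 and 3 left out, the numbers were 86 of 110 (78.2%), 75 of 86 (87.2%) and 75 of 110 (68.2%), against 4.88%, 7.8% and 4.49%. A left-out culture fell below the well-watered mean for 0 chosen models, against 35.1% to 36.5% of all, and a left-out drought library for at most 1, against 40.3% to 41.6%.

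Each pair of groups was also fitted across all gene models with edgeR's quasi-likelihood test, where a model with a Benjamini-Hochberg adjusted p under 0.05 is called. All 106 members passed the filter on low counts in each pair, which their level in cultures and drought roots secures. All 106 were called lower in well-watered roots than in cultures, where 24.5% of the 8919 models tested were called lower, and 98 were called higher under drought than with watering, where 9.53% of 8029 models were. Of the members described by identifier, jgi|Tercla1|401762| (edgeR adjusted p 0.064) and jgi|Tercla1|1207923| (0.057) were not called between drought and well-watered roots, and the others were. The rule used these contrasts, so these counts restate the choice.

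Between drought roots and cultures, 23 members were called higher in drought roots, where 21.4% of 9001 models were, and 12 were called lower, where 21.8% were. Of the members described by identifier, jgi|Tercla1|1222868| (edgeR adjusted p 0.059) and jgi|Tercla1|1171348| (0.92) were not called here, and the others were. Taking both directions, 35 members were called. Leaving out culture replicate 1, 2 or 3 gave 21, 22 or 21, and leaving out drought replicate 2 gave 55. Over all models the calls moved the same way, from 3884 to 2780, 2516 and 2494 without a culture and to 5701 without drought replicate 2. The 12 called lower became 5, 5 or 3 on leaving out a culture, 28 on leaving out drought replicate 2 and 6 on leaving out drought replicate 3. Over all models, lower calls went from 1958 to 1390, 1267 and 1248 without a culture and to 2994 and 1978 without drought replicates 2 and 3.

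A length and a share of unique reads were worked out for each model with a read, from its counts and RPKM. The members had a median length of 1226 bases (range 345 to 5207), against 1536 bases over the 5301 models, and 16 of 106 (15.1%) were at most 600 bases long, against 6.83%. Over all 11241 models with a read in any library the median was 1132 bases and 19.0% were at most 600 bases, so the members were shorter than the 5301 well-read models and close to the catalogue as a whole. Across the members the ratio to well-watered roots showed little relation to length (Spearman's rho -0.13, n = 106 members, which share the same libraries).

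Reads were mostly unique: 95 of 106 members (89.6%) had at least 95% of their reads unique, against 94.0% of the 5301 models. For 4 members (3.77%, against 3.17%) less than 50% of the reads were unique, and their levels are uncertain, since such reads may belong to another model. Besides jgi|Tercla1|1207923| these had 16.3%, 31.7% and 40.4% unique reads. Counted on unique reads alone, 97 gene models met the rule, all among the 106.

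The same rule was also turned to the other groups, on library totals. With drought roots as the low group 71 gene models met it, and with cultures as the low group 242 did. The 71 had a median length of 1383 bases and the 242 one of 1379 bases. In the 71, 97.2% had at least 95% unique reads, and in the 242, 90.9% did. The shallow well-watered libraries enter these 3 rules in different places, so the numbers do not rest on equal precision. On TMM-scaled CPM and DESeq2 size factors the 106 became 64 and 60. The 71 and 242 were not recounted on those scalings, so the order of these set sizes was not tested.

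Some members depended little on how the counts were handled. Over 13 settings (unique reads, both other scalings, thinning to the smallest total, and leaving out each of the 9 libraries) 48 of the 106 members met the rule every time. Their ratios ran from 4.77 to 79.6 with a median of 7.78. The other 58 failed in at least 1 setting, with a median ratio of 4.40 and a highest of 16.0. All 4 of the members with the largest ratios or the largest shares of reads described above were among the 48, and the 4 described for their ratio of drought to culture were not.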

How the data were processed

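RNA of 9 samples was sequenced in read pairs of 75 bases. Per the file headers, the authors deposited for each library and gene model the counts "Unique gene reads" and "Total gene reads" and an RPKM value. Per the submitters' processing notes, the tools included FastQC, SAMtools 1.7 and Bowtie2 2.3.0. For the counting program, strand setting and build, nothing is given in the sources used here. Overlapping or antisense models could therefore share reads. The deposited RPKM gave 1 whole-number length per model in every library (11241 of 11241 models with a read, relative tolerance 1e-06), and these lengths were used. RPKM was otherwise used only to compare levels between genes.

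Total gene reads were analysed as CPM on library totals. Fits used edgeR 4.0.16 in R 4.3.3 on each pair of groups (filterByExpr, TMM, robust quasi-likelihood F test), with DESeq2 1.42.0 as an alternative. They were also run on simulated data with far fewer changed models than were called here, and nothing is concluded from that run. Counting intervals are exact binomial at 95%. Depth ran from 869998 to 31854784 reads per library. The members and all lists were chosen with earlier results of these data known. Members described by identifier are the 2 with the largest ratio to well-watered roots, the 2 each with the highest and lowest ratio of drought to culture, and the 2 with the highest mean CPM over cultures and drought roots. Alternatives were other scalings, thresholds, filters, tests and read columns, thinning, a joint fit, a replicate block and leaving out each library. No gene set was tested, because the files pair no identifier with a function.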

Additional observations from a re-analysis of the deposited data

How the results depend on the processing

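The number of members moved with scaling and threshold. It was 64 on TMM-scaled CPM, 60 on DESeq2 size factors, 197 at 3-fold, 24 at 8-fold and 69 at 50 CPM, against 106, and ran from 86 to 165 when 1 library was left out. The cause of the rise to 165 without well-watered replicate 1 was not tested. With 1 library left out, members called between drought roots and cultures ran from 21 to 55 (main count 35). The other settings kept the counts of called members within 1.5 times of the main ones when both directions are added. The 12 members called lower in drought roots than in cultures were 5 after thinning and 6 in the joint fit. With a replicate block the calls were 106, 98 and 31 members (culture against well-watered, drought against well-watered, drought against culture), against 106, 98 and 35, and 3854, 1335 and 3025 of all models, against 4359, 1587 and 3884. Correlations of same-numbered deviations ran from -0.08 to 0.10. The samples that correlated best with their own number were 2 of 6 for cultures and well-watered roots. They were 4 of 6 for drought and well-watered roots and 0 of 6 for drought roots and cultures. With 3 libraries per group, these values cannot tell whether same-numbered samples belong together. Depth limits the well-watered levels, with a median of 49.5 pooled reads per member.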
